A study of Mus musculus with 5 samples.

Results

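The genes described here are 31 factors that form and protect the 3′ ends of messages, out of 54838 genes listed in each file. They are a list of names, drawn up with earlier results of these data known: subunits of the cleavage and polyadenylation complexes, poly(A) polymerases, poly(A) binding proteins, termination factors and factors that process histone messages. All 31 were found through GENCODE M21. Symplk is listed there as Sympk and Papd4 as Tent2. RNA came from N2a cells, a mouse neuroblastoma line, in 2 groups: siCtrl cells (2 libraries) had been given a control siRNA, and siEwsr1 cells (3 libraries) one that targets Ewsr1. Both groups received 2 pulses of lipid transfection and were collected 24 hours after the last. The labels give the siRNA concentration as 100 µM. Libraries were made from ribosome-depleted total RNA with a stranded kit. Nothing in the labels ties the replicates to separate cultures. The p-values below therefore rest on a between-library spread that may be only technical. The effect of 1 siRNA against Ewsr1 was measured in 1 cell line, with no rescue among the samples.

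Most messages end where the nascent transcript is cut and given a poly(A) tail. The cleavage and polyadenylation specificity factor reads the AAUAAA signal and carries the endonuclease, the cleavage stimulation factor binds GU-rich sequence downstream, and cleavage factor I binds UGUA upstream. Poly(A) polymerase then adds the tail, poly(A) binding proteins coat it, and an exonuclease degrades the RNA left on the polymerase. Replication-dependent histone messages are cut by a related machinery after a stem-loop and receive no tail.

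The factors are themselves messages with 3′ ends. In the last 30 bases, the AATAAA signal was about as frequent among them as among all genes, with both shares given below. The last 30 bases of the longest annotated protein-coding transcript are shown, as DNA, for 8 of the 10 factors with the smallest p in the comparison below. They were chosen to show both signals and windows without either. Papola and Fip1l1, the others of the 10, held neither signal in this window. Capitals mark the polyadenylation hexamer, AATAAA or ATTAAA, and all sequences are from GENCODE M21 on GRCm38.
Tent2: ctgtcaaatggAATAAAgtttatatctgga
Zfp473: aAATAAAgtgttcgctgtggttaatgttca
Pabpc1: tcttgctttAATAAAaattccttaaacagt
Cstf1: tctaaAATAAAttttttttatataacagtg
Slbp: aaaAATAAAgaccctttaactgacttgtaa
Pcf11: ATTAAAacttgtgattttttttccgtggga
Ssu72: aacaggctgtcttattaaggggaaaaaaaa
Cstf2t: acaaaatataacagttctttgcattaagac

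On the transcript strand, AATAAA stood in this window in 18 of the 30 factors read (60%), against 55.49% of 11983 protein-coding genes tested. ATTAAA without AATAAA stood in 2 factors, Pcf11 and Cpsf4 (6.667%), against 13.34% of genes. The other 10 factors held neither hexamer in the window, among them Ssu72 and Cstf2t. Wdr33, on chromosome 18, was not read for this window, although the shares over all genes include that chromosome. A window without a hexamer says only that these letters are not in the last 30 bases of that transcript. Over the last 40 bases of any annotated protein-coding transcript, AATAAA stood in 26 of 31 factors (83.87%), against 71.07% of 11913 genes. Ssu72 was among these 26 and Cstf2t was not.

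The unit of level is RPKM, meaning reads scaled to the kilobases of exon and to the library's total of counted reads. Libraries held 15045774 to 21339459 counted reads. Ewsr1, the targeted gene, stood at 71.7 and 72.3 RPKM in the siCtrl libraries and at 35.7, 36.3 and 37.6 RPKM in the siEwsr1 libraries. It fell by 0.96 on the log2 scale (limma, adjusted p = 0.01995). Of 12 markers of N2a cells, 9 reached 1 RPKM in every library, while 0 of 7 fibroblast, 0 of 5 glial and 0 of 5 macrophage and blood markers did. The summed level of the N2a markers was 533 to 560 RPKM in siCtrl and 699 to 728 RPKM in siEwsr1. Chgb alone made up most of this sum, at 348 and 328 RPKM in siCtrl and 452, 449 and 463 RPKM in siEwsr1. The sum does not describe every marker. Gata3 was at 2.89 and 2.41 RPKM in siCtrl and 2.19, 2.01 and 2.56 RPKM in siEwsr1, and Nefl and Nefm were at or near 0 in every library. Col3a1, Lum, Sox10, Hbb-bs and Hba-a1 were listed at 0 in every library. In bulk RNA, fewer cells of a type and less RNA per cell cannot be told apart. On the first principal component, which held 45.43% of the variance, siEwsr1 replicate 3 lay at -0.11, between the siCtrl libraries (-28.9 and -21.3) and the other siEwsr1 libraries (16.6 and 33.7).

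All 31 factors passed the filter on low reads, and 30 of them had 321 to 7908 reads in every library. Zfp473 was the exception, with 12 to 50 reads. The highest level was that of Xrn2, the nuclear exonuclease of transcription termination, at 63.5 to 70.9 RPKM over the 5 libraries. Pabpc1, the main cytoplasmic poly(A) binding protein, followed at 39.0 to 53.2 RPKM, and Nudt21, the RNA-binding subunit of cleavage factor I, at 39.2 to 45.1 RPKM. The lowest tier held Wdr33, the subunit that contacts the AAUAAA signal, at 6.27 to 6.94 RPKM, Scaf4, a polymerase tail-binding anti-terminator, at 3.86 to 4.73 RPKM, and Zfp473, a zinc finger protein of histone message processing, at 0.0691 to 0.245 RPKM. Ranges over the libraries separated neighbours in this order at 4 places only: below Xrn2, below Eri1, and on either side of Scaf4. All other neighbours overlapped. Only adjacent factors were compared, and the gap below Eri1 is not a break in the list. Its lowest library, at 34.1 RPKM, was under the highest of Cstf2t (35.2 RPKM) and of Papola (34.3 RPKM).

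**Figure D1:**
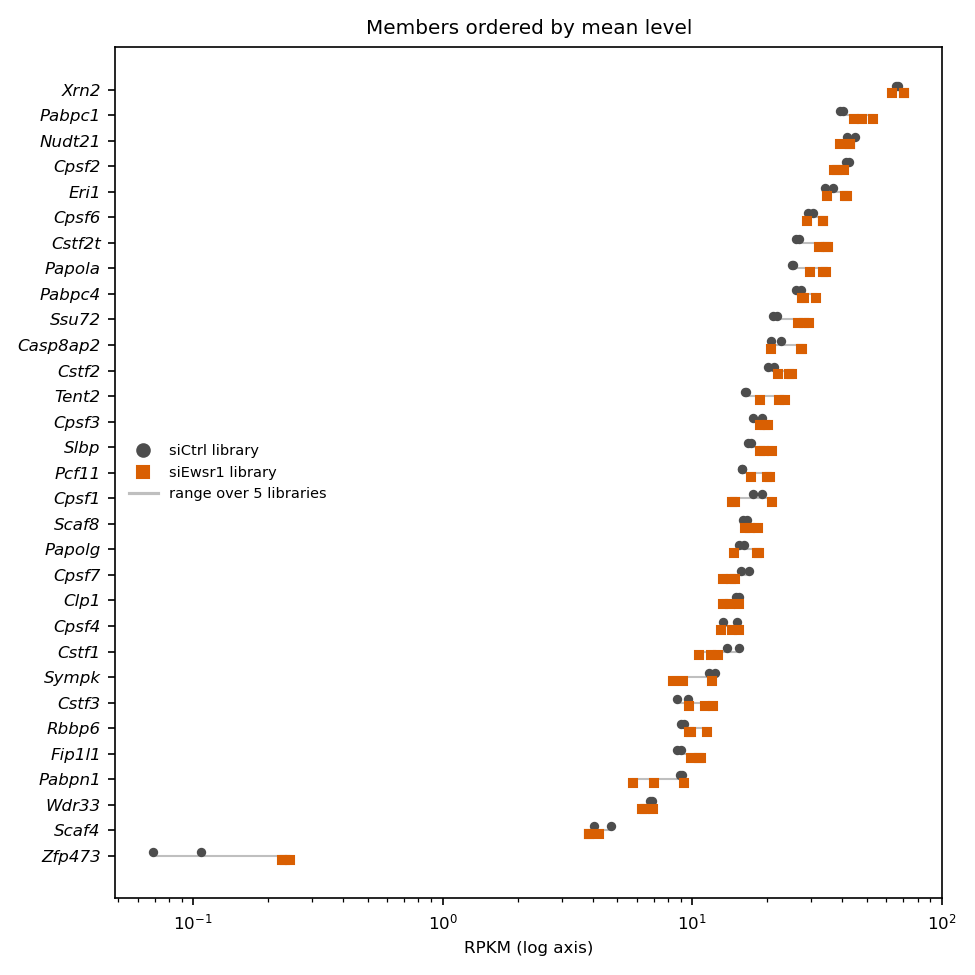
Level of each factor in RPKM (log axis) in the 2 siCtrl libraries (circles) and the 3 siEwsr1 libraries (squares), ordered by the mean over all 5, with a grey line for the range. Xrn2 stands highest, Zfp473 lowest, and most neighbours overlap.

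No factor passed the test for a difference between siEwsr1 and siCtrl: 0 of 31 were called higher (background, 0.791% of 14911 genes tested) and 0 of 31 lower (background, 1.01%; either direction, 1.80%), by limma at an adjusted p under 0.05. At an unadjusted p under 0.05 there were 10 of 31 factors, against 20.3% of all genes. The estimate was above 0 in 21 factors (background, 48.3%) and below 0 in 10, with a median log2 fold change of 0.127, against -0.012 over all genes tested. All siEwsr1 libraries lay above both siCtrl libraries in 13 of 31 factors (background, 18.6%) and below both in 3 (background, 21.3%). No test of the list as a whole was made. The counts by role below are small and have the same backgrounds, 20.3% of genes at an unadjusted p under 0.05 and 48.3% above 0.

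The outcome depends on how the variance is modelled and on which libraries are used. The plan fixed limma with a variance trend, which was fitted on the mean log2 level. With the trend on mean log2 reads in its place, a choice tried after the first result was seen, Ssu72 (adjusted p = 0.0347) and Cstf2t (adjusted p = 0.0423) were called higher (background, 2.45% of genes), and 787 genes in all instead of 268. With limma voom on the recovered reads, Ssu72 (adjusted p = 0.0344), Cstf2t (adjusted p = 0.0401) and Papola (adjusted p = 0.0497) were called higher (background, 2.43%). Other settings went the opposite way. With no variance trend or robust moderation, 0 genes were called, and Ewsr1 itself missed the threshold (limma adjusted p = 0.0711). Without siEwsr1 replicate 1, 0 genes were called. Without siEwsr1 replicate 3, 10 factors were called higher (background, 6.72% of 14563 genes) and 3 lower (background, 6.52%), with a median log2 fold change of 0.184. The 10 were Fip1l1, Cstf2, Cstf2t, Cstf3, Pcf11, Ssu72, Papola, Tent2, Pabpc1 and Casp8ap2, and the 3 were Cpsf1, Sympk and Pabpn1. Replicate 3 was the siEwsr1 library nearest to the siCtrl mean in 21 of 31 factors (67.74%), against 43.57% of all genes. What sets that library apart was not tested.

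**Figure D2:**
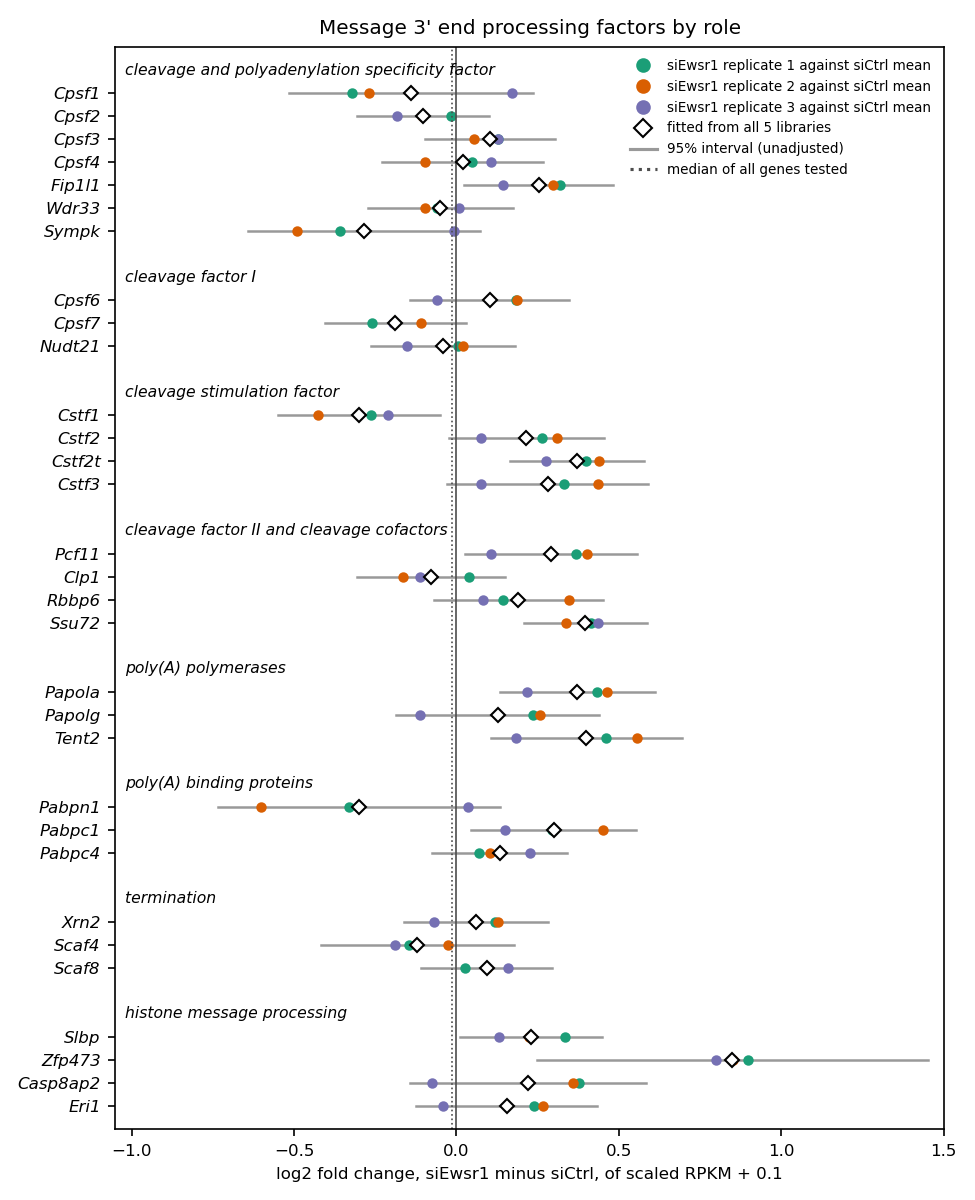
Log2 fold change of each factor, siEwsr1 minus siCtrl, by role: open diamonds are fitted values, grey lines unadjusted 95% intervals, coloured circles each siEwsr1 library against the siCtrl mean, and the dotted line the median of all genes tested. None passed the adjusted threshold, and siEwsr1 replicate 3 often lies nearest 0.

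In the cleavage and polyadenylation specificity factor, 0 of 7 subunits were called, 1 reached an unadjusted p under 0.05, and the median log2 fold change was -0.05. Fip1l1 (chromosome 5, 74535449 to 74598800, plus strand), which tethers poly(A) polymerase to the complex, was that subunit. Its level was 8.69 and 9.02 RPKM in siCtrl and 10.9, 10.7 and 9.85 RPKM in siEwsr1, so the groups did not overlap. The log2 fold change was 0.25 (SE 0.097, limma adjusted p = 0.215). Cpsf3, the endonuclease, stood at 17.6 and 19.1 RPKM in siCtrl and 19.6, 18.6 and 20.2 RPKM in siEwsr1, with overlapping groups. Sympk, the scaffold shared with the histone machinery, had the lowest estimate of the complex, -0.28 (adjusted p = 0.336). Its level was 11.7 and 12.3 RPKM in siCtrl and 9.17, 8.35 and 12.04 RPKM in siEwsr1, where only replicate 3 fell within the control range. Cpsf1, the largest subunit, was at 17.6 and 19.1 RPKM in siCtrl. Its siEwsr1 libraries lay on both sides of these, with 14.4 and 14.9 RPKM in replicates 1 and 2 and 20.8 RPKM in replicate 3. Cpsf2, a catalytically inactive relative of Cpsf3, had an estimate of -0.10, with all siEwsr1 libraries below both siCtrl libraries. Cpsf4, a zinc finger subunit that contacts the signal, and Wdr33 had estimates of 0.02 and -0.05, with overlapping groups.

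Cleavage factor I, which steers the choice between alternative sites, had 0 of 3 subunits called, and none at an unadjusted p under 0.05. Nudt21 was at 45.1 and 41.7 RPKM in siCtrl and at 42.7, 43.1 and 39.2 RPKM in siEwsr1. Its log2 fold change was -0.04, with an unadjusted 95% interval from -0.26 to 0.18. Its larger partners had estimates of 0.10 (Cpsf6, interval -0.14 to 0.35) and -0.19 (Cpsf7, interval -0.41 to 0.03). For Cpsf7 every siEwsr1 library lay below both controls.

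In the cleavage stimulation factor, 0 of 4 subunits were called and 2 reached an unadjusted p under 0.05, in opposite directions. Cstf2t (chromosome 19, 31082837 to 31087069, plus strand), a paralogue of the RNA-binding subunit Cstf2, was at 26.9 and 26.1 RPKM in siCtrl and at 34.2, 35.2 and 32.3 RPKM in siEwsr1. Every siEwsr1 library was higher than both controls, and the log2 fold change was 0.37 (SE 0.086, limma adjusted p = 0.0863). Cstf1 (chromosome 2, 172370681 to 172382448, plus strand), the WD-repeat subunit, was at 13.8 and 15.4 RPKM in siCtrl and at 11.9, 10.6 and 12.7 RPKM in siEwsr1. Every siEwsr1 library was lower, with a log2 fold change of -0.30 (SE 0.10, limma adjusted p = 0.184). Cstf1 was the 1 factor below 0 among the 10 with the smallest p. Cstf2 and the scaffold Cstf3 had estimates of 0.22 and 0.28, both with adjusted p values near 0.28 (0.285 and 0.283) and with groups that did not overlap.

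Among cleavage factor II and its cofactors, 0 of 4 were called and 2 reached an unadjusted p under 0.05. Ssu72 (chromosome 4, 155704800 to 155733879, plus strand), a phosphatase of the polymerase II tail, had the smallest p of the 31. Its level was 21.1 and 21.8 RPKM in siCtrl and 28.1, 26.6 and 29.3 RPKM in siEwsr1. The groups were well apart, replicate 3 was the highest, and the log2 fold change was 0.40 (SE 0.079, limma adjusted p = 0.0648). An antisense gene, 1500002C15Rik, shares 407 exonic bases with Ssu72 (15.14% of its exonic length). Its recovered reads were 77 and 52 in siCtrl and 29, 44 and 37 in siEwsr1, against 895 to 1527 for Ssu72. The strand setting of the counting is not given in the sources used here, so reads of the pair may not be separated. Pcf11 (chromosome 7, 92643543 to 92669934, minus strand), which couples cleavage to termination, was at 15.8 and 15.8 RPKM in siCtrl and at 20.02, 20.5 and 17.2 RPKM in siEwsr1. Replicate 3 was again nearest the controls, and the log2 fold change was 0.29 (SE 0.11, limma adjusted p = 0.213). Clp1, the RNA kinase partner of Pcf11, had an estimate of -0.08 with overlapping groups. Rbbp6, an activator of the cleavage complex, had an estimate of 0.19 and groups that did not overlap.

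All 3 poly(A) polymerases had estimates above 0, 0 were called, and 2 reached an unadjusted p under 0.05. Papola (chromosome 12, 105784694 to 105838944, plus strand), the canonical nuclear enzyme, was at 25.2 and 25.5 RPKM in siCtrl and at 33.6, 34.3 and 29.7 RPKM in siEwsr1. Its log2 fold change came to 0.37 (SE 0.10, limma adjusted p = 0.114). Tent2 (chromosome 13, 93146282 to 93192385, minus strand), a cytoplasmic enzyme that lengthens the tails of dormant messages, was at 16.4 and 16.4 RPKM in siCtrl and at 22.2, 23.6 and 18.8 RPKM in siEwsr1. Its log2 fold change came to 0.40 (SE 0.12, limma adjusted p = 0.146). In both genes every siEwsr1 library exceeded both controls, with replicate 3 the lowest of the 3. Papolg, a second nuclear enzyme, overlapped between groups, with 16.1 and 15.3 RPKM in siCtrl and 18.2, 18.5 and 14.7 RPKM in siEwsr1.

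Of the 3 poly(A) binding proteins 0 were called, and their estimates differed in sign. Pabpc1 (chromosome 15, 36595661 to 36609668, minus strand) was at 40.3 and 39.0 RPKM in siCtrl and at 47.8, 53.2 and 44.4 RPKM in siEwsr1. The groups did not overlap, and the log2 fold change was 0.30 (SE 0.11, limma adjusted p = 0.190). Pabpn1, the nuclear protein that sets tail length, was at 8.92 and 9.13 RPKM in siCtrl and at 7.03, 5.79 and 9.31 RPKM in siEwsr1. Replicate 3 lay above both controls and the others below, so its estimate of -0.30 has a wide interval, from -0.73 to 0.13. Pabpc4, an inducible cytoplasmic relative, had an estimate of 0.13. Of the 50-base stretches of its longest transcript, 70.74% also occur, on either strand, in transcripts of other annotated genes. The share was 20.66% for Pabpc1, 27.35% for Pabpn1, 27.54% for Tent2 and 28.95% for Ssu72. Genes that overlap at the same place are included. The leading match of Ssu72 was the antisense gene 1500002C15Rik, so its share is not separate from the overlap given above. That of Pabpn1 was Gm20521, which shares 651 exonic bases with it on the same strand (21.45% of its exonic length) and had 0 to 4 recovered reads. How reads that fit several genes were counted is not given in the sources used here, so the levels of these genes, Ssu72 included, are less certain.

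None of the 3 termination factors was called or reached an unadjusted p under 0.05. Xrn2 was at 66.8 and 65.6 RPKM in siCtrl and at 70.6, 70.9 and 63.5 RPKM in siEwsr1. Its log2 fold change was 0.06, with an unadjusted interval from -0.16 to 0.28. Scaf4 and its relative Scaf8, which restrain early termination, had estimates of -0.12 and 0.09. The groups overlapped in all 3.

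In histone message processing, 0 of 4 factors were called, 2 reached an unadjusted p under 0.05, and all 4 estimates were above 0. Zfp473 (chromosome 7, 44731480 to 44751050, minus strand), a partner of the U7 small nuclear ribonucleoprotein, was at 0.107 and 0.0691 RPKM in siCtrl and at 0.245, 0.233 and 0.228 RPKM in siEwsr1. These values rest on 17 and 12 reads in siCtrl and 37, 50 and 40 in siEwsr1. Its log2 fold change of 0.85 (SE 0.25, limma adjusted p = 0.136) was the highest of the 31, and it was 0.19 with a pseudocount of 1 in place of 0.1 and 1.44 with voom (adjusted p = 0.0555). Slbp (chromosome 5, 33634952 to 33652574, minus strand), which binds the histone stem-loop, was at 16.7 and 17.1 RPKM in siCtrl and at 20.97, 19.4 and 18.7 RPKM in siEwsr1. The groups did not overlap, and the log2 fold change was 0.23 (SE 0.092, limma adjusted p = 0.227). Casp8ap2, needed for histone message expression, and Eri1, an exonuclease that trims the histone message end, had estimates of 0.22 and 0.15. In both, replicates 1 and 2 lay above the controls and replicate 3 within them.

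**Figure D3:**
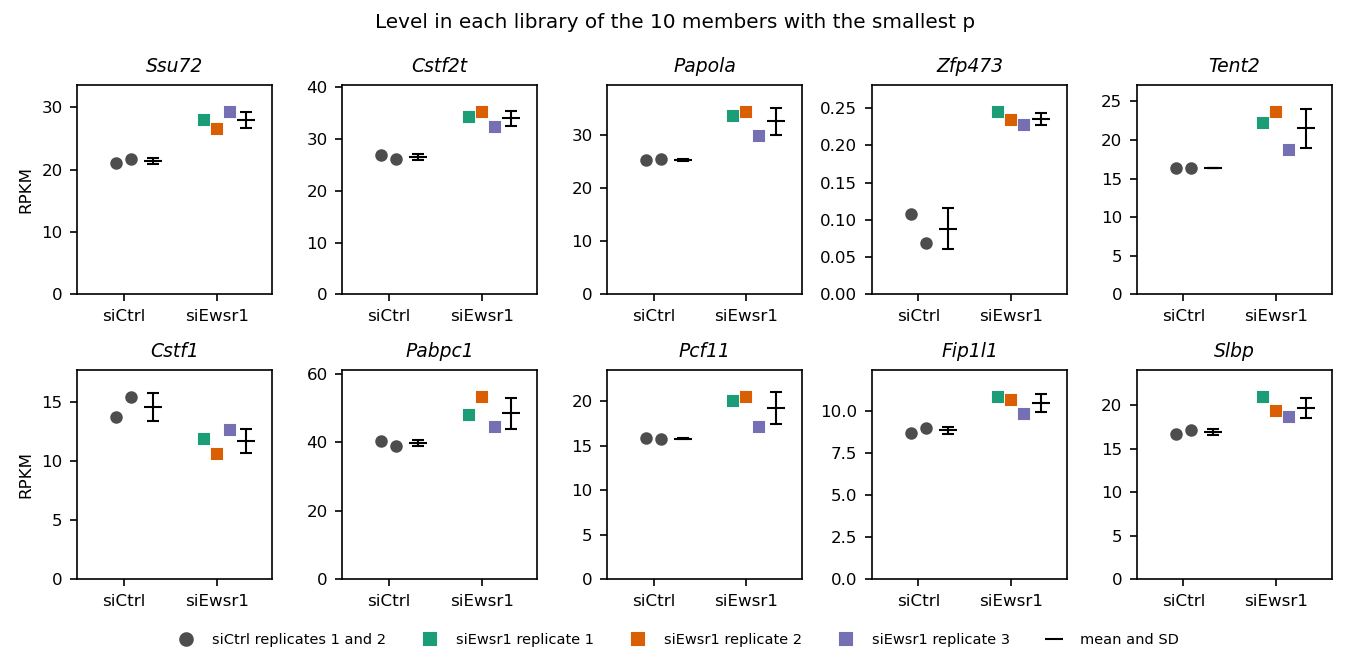
RPKM in each library of the 10 factors with the smallest p, each on its own axis from 0, with the group mean and SD beside the points. In all 10 the siCtrl and siEwsr1 libraries do not overlap. The 10 were picked by p from these same libraries, which favours such separation, so it is not separate evidence of a difference. Cstf1 is the only one lower in siEwsr1, and Ssu72 is the only one of the 9 higher factors in which replicate 3 stands highest.

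Another 74 genes of the same pathway were listed, of which 68 passed the filter on low reads. Of these, 0 were called in either direction by limma, 12 reached an unadjusted p under 0.05 (background, 20.3%), and the median log2 fold change was 0.094. The count at an unadjusted p under 0.05 was 3 of 20 among termination and polymerase II tail regulators, 3 of 11 among histone message and cap factors, 4 of 18 among deadenylases and 2 of 19 among poly(A) tail and cytoplasmic polyadenylation genes. The medians of these lists were 0.094, -0.12, 0.12 and 0.13. The histone and cap list thus stood below 0 where the 4 histone factors above had a median of 0.225, and this difference was not tested.

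With the trend on mean log2 reads, and again with voom, the same 3 of these genes were called, 2 higher and 1 lower, and they are named here after their values were seen. Backgrounds for lower calls were 2.82% with the trend on reads and 3.14% with voom. Pan3, a subunit of a deadenylase that trims long tails, was at 5.21 and 5.65 RPKM in siCtrl and 7.80, 7.78 and 7.32 RPKM in siEwsr1 (adjusted p = 0.0651 in limma as planned, 0.0144 with the trend on reads). Ncbp2, the cap-binding subunit of the nuclear cap complex, was at 18.8 and 16.8 RPKM in siCtrl and 22.9, 25.6 and 23.6 RPKM in siEwsr1 (limma adjusted p = 0.0786 as planned, 0.0384 with the trend on reads). Lsm11, a subunit of the U7 ribonucleoprotein to which Zfp473 binds, was at 8.77 and 8.80 RPKM in siCtrl and 6.25, 6.79 and 6.36 RPKM in siEwsr1 (limma adjusted p = 0.0833 as planned, 0.037 with the trend on reads).

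**Figure D4:**
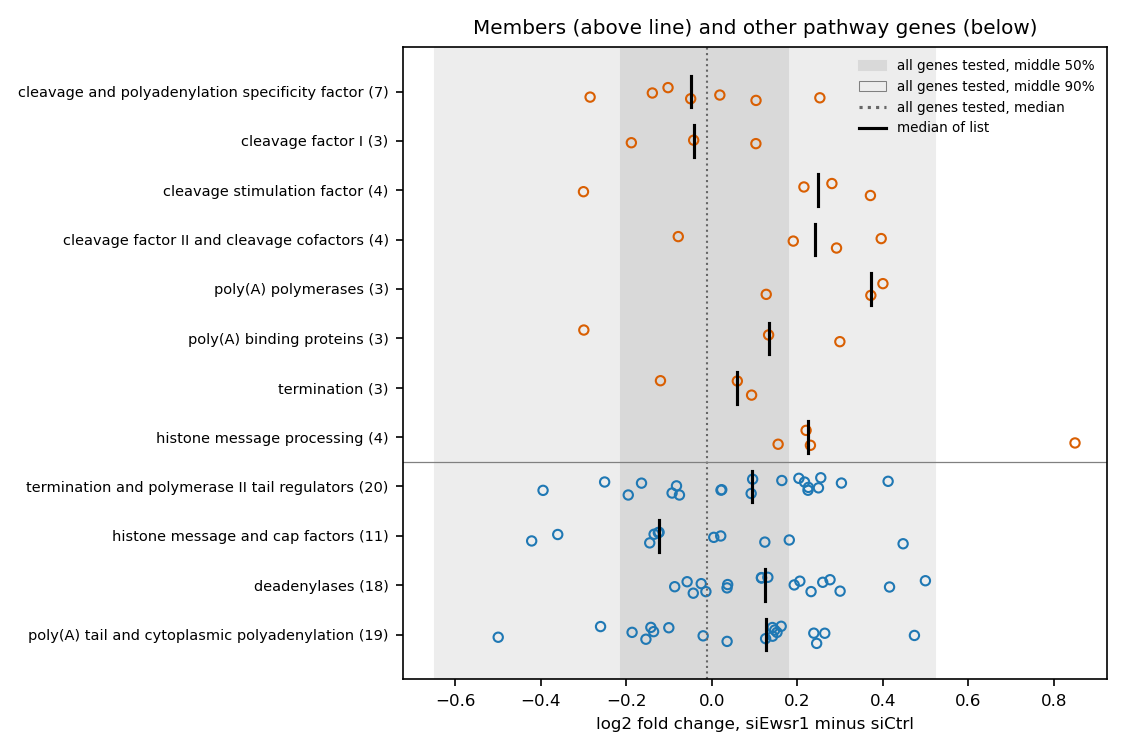
Log2 fold change of each tested gene, siEwsr1 minus siCtrl, by role for the 31 factors (above the line) and 68 other pathway genes (below), with black bars for list medians; the number of genes stands beside each list, and points are spread vertically only for legibility. Shading marks the middle 50% (-0.21 to 0.18) and 90% (-0.65 to 0.52) of all genes tested, and 30 of the 31 factors lie within the latter.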

How the data were processed

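Gene-level RNA-seq values of 5 libraries were used, grouped by their titles. The submitters' processing notes name STAR 2.5.2b, featureCounts 1.5.1, edgeR and GRCm38. The annotation, the strand setting and the handling of multi-mapped reads: not given in the sources used here. Deposited values behave as RPKM, with no unit in the files. Values of 1 or more lost their decimal point. It was restored from the requirement that value, exonic length (GENCODE M21) and library total give whole reads, without group labels. Of intact values, 98.5% to 98.6% were whole within 1e-06 reads. Recovered reads differed from the totals by -0.0563% to -0.0514%. Of 27255 genes above 0, 27052 were kept, with odds of at least 20 for the chosen reading. The settings of this step were tuned after the data were seen, guided by the library totals and partly by the odds of the Ewsr1 reading. Ewsr1 itself needed a raised decimal reading (odds 1740.56), so its fall is not independent of this tuning. For 560 genes, Cpsf7 and Cstf2t among them, exonic length was solved from the values, and 13 of the 31 factors needed a raised decimal reading. A simulation for siEwsr1 against siCtrl (7658 genes) drew only on genes already kept with their GENCODE length, and low genes were not among those changed. Solved lengths, as for Cpsf7 and Cstf2t, and changes in low genes were therefore not tested by it. In the simulation, all 50 genes changed 1.5-fold and all 50 changed 2-fold were read correctly, as were all 25 kept of 50 changed 4-fold. Of 50 changed 10-fold, 43 were kept and 12 read correctly, so a change near 10-fold may be read as none.

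limma 3.58.1 (R 4.3.3) was run on log2(RPKM + 0.1), after trimmed-mean scaling (30% of ratios, 5% of levels), over the 14911 genes that reached 10 reads, scaled to the median library, in 2 or more libraries. Group was the only term, with a variance trend, robust moderation and Benjamini-Hochberg adjustment over all genes, called under 0.05. Fold changes on this scale understate low genes. On simulated data (14759 genes), the fit called 0 of 50 genes changed 1.2-fold, 21 of 50 changed 1.5-fold, 44 of 50 changed 2-fold and 48 of 50 changed 4-fold. It also called 18 of 14559 unchanged genes, a larger share of all its calls than the threshold of 0.05 aims at. Every simulated library had the same independent spread, with none set apart as siEwsr1 replicate 3 was. Estimates of all factors other than Zfp473 were smaller than the 1.5-fold step. An exact permutation test of 2 against 3 libraries cannot go below 0.1 and was not used.

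The members and lists were chosen with earlier results of these data known. The plan did not say which mean the variance trend follows. The standard trend on the mean log2 level was fitted first and called 0 factors. A trend on mean log2 reads was then used for a time as the leading fit, because counting error follows reads. It was set back to an alternative, since that change had been made with the first result in view. Values in every library were planned for called factors and, with fewer than 4 called, for the 10 of smallest p. Alternatives covered pseudocount, filter, scaling, voom, decimal reading, variance model, leaving out each library and a replicate block.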

Additional observations from a re-analysis of the deposited data

How the results depend on the processing

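No alternative called a factor, other than voom (3 higher), the trend on mean log2 reads (2 higher, chosen after seeing the data) and leaving out siEwsr1 replicate 3 (10 higher, 3 lower). Over the fits that left out one library, factors called higher ranged from 0 to 10 and lower from 0 to 3. Other pathway genes called were 2 higher and 1 lower with voom and with the trend on reads, and 0 to 9 higher and 0 to 2 lower with a library left out. The median log2 fold change of the factors ranged from 0.1141 to 0.1836 with a library left out.

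Over all genes, 118 were called higher and 150 lower. These became 362 and 468 with voom, 366 and 421 with the trend on reads, 54 and 68 with the lowest decimal reading only (12893 genes and 18 factors tested, Ewsr1 not among them), and 0 and 0 with no filter on low reads or with no variance trend or robust moderation. With a library left out they ranged from 0 to 979 higher and from 0 to 949 lower, being 0 when either siCtrl library or siEwsr1 replicate 1 was absent. The Ewsr1 log2 fold change stayed between -0.9775 and -0.9352 (-0.9704 to -0.9352 with a library left out). It missed the threshold at -0.9622 with no filter (adjusted p = 0.0694) and with no variance trend or robust moderation (adjusted p = 0.0711), and on leaving out either siCtrl library or siEwsr1 replicate 1 (adjusted p = 0.12 to 0.268). The cause of these shifts was not tested.

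Estimates changed sign without siCtrl replicate 1 in Cpsf4 (-0.05584), Nudt21 (0.03095) and Scaf4 (0.007488), and without siEwsr1 replicate 3 in Cpsf4 (-0.02528) and Nudt21 (0.01285). With a library left out, Nudt21 ranged from -0.09311 to 0.03095 and Scaf4 from -0.2254 to 0.007488. Leaving out a library moved 18 factors by over 1.5 times, a ratio to the main estimate that estimates near 0 exceed most easily. Of these, 0 were among the 10 of smallest p. Those 10 were picked from the same libraries, so this cannot show that they are steadier. Examples of moved factors without siEwsr1 replicate 3 are Cpsf1 (-0.295), Pabpn1 (-0.4664), Casp8ap2 (0.368), Eri1 (0.2535), Papolg (0.2467), Cpsf6 (0.1836) and Xrn2 (0.1241). Without siEwsr1 replicate 2, Pabpn1 was at -0.1324 and Sympk at -0.167. In the labels, same-numbered replicates share only a number. Deviations of same-numbered libraries from their group means correlated at 0.031 and -0.124. This cannot decide whether they were paired, because the deviations of 2 siCtrl libraries from their own mean mirror each other. The replicate block called 354 genes and 0 factors, took nothing from siEwsr1 replicate 3, whose number no control shares, moved the factors' median to 0.1836, and changed the sign of Cpsf4 (-0.02529) and Nudt21 (0.01285). Depth limits Zfp473 most.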
